A study of Mus musculus with 8 samples.

Results

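The polyA-selected RNA (mRNA) libraries of haematopoietic stem and progenitor cells were compared between samples labelled Mut, described as Runx1 deficient, and samples labelled WT, described as Runx1f/f. The 4 mRNA libraries, 2 WT and 2 Mut-labelled, were taken by their names from the 8 libraries of the series. The other 4 were total RNA libraries. All samples were Flt3- LSK cells (lineage-negative, Sca-1-positive, Kit-positive cells without the receptor Flt3) from the bone marrow of C57BL/6J mice, with 24000 cells sorted for each. The floxed allele of the WT animals is a Runx1 gene flanked by recombination sites. The sources used here do not give the Cre transgene, the deleted part of Runx1, the age and sex of the mice or the number of animals behind a sample, so the p-values speak of the spread among these 4 libraries alone, and that spread may be technical.

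Runx1 encodes a DNA-binding transcription factor that works with a partner, Cbfb, at sites in promoters and enhancers of blood cell genes. It is needed for blood stem cells to form in the embryo, and in the adult it is known for its part in platelet, lymphoid and myeloid development. The Flt3- LSK fraction is enriched for long-lived stem cells and the earliest multipotent progenitors, which already transcribe low levels of genes of several blood lineages. In such bulk libraries, fewer cells of a type and less RNA per cell cannot be told apart.

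Runx1 itself was higher in the libraries labelled Mut, at 200.003 and 208 CPM (WT) against 749 and 941 CPM (Mut-labelled) (CPM, counts put on a common library size by TMM, given throughout as replicates 1 and 2 of each group). The label reads Runx1 deficient, but gene-level counts say nothing of whether an exon was removed, so they could not check it. The term Mut-labelled is kept, and the directions below rest on those labels. The difference in Runx1 was clear of the spread between samples (log2 fold change 2.05, SE 0.18, edgeR adjusted p = 0.00753). Of its relatives and partner 0 were called by edgeR. Runx3 stood at 0.63 on the log2 scale (edgeR adjusted p = 0.0764) and was called by DESeq2 (adjusted p = 0.000981). Runx2 stood at 0.402 and the partner gene Cbfb at 0.17, and of these Runx2, like Runx3, was below an unadjusted p of 0.05. Of the 20 tested genes that flank Runx1 most closely, 10 on each side, 1 was called, near the share of 3.64% over all tested genes. That was Itsn1, an endocytic scaffold gene, at 108 and 144 CPM (WT) against 53.4 and 58.02 CPM (Mut-labelled).

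The distal of the Runx1 promoter windows in the RefSeq promoter table (GRCm38.p6, 250 bases before to 50 after the start) is shown because the gene's own transcript was higher. It lies at chr16:92826025-92826324 on the minus strand, and capitals mark the RUNX letters TGTGGT or TGCGGT read on either strand, here ACCACA in both places. The table's other Runx1 window, at chr16:92697280-92697579 on the same strand, holds 0 matches to these letters and is not printed.
Runx1: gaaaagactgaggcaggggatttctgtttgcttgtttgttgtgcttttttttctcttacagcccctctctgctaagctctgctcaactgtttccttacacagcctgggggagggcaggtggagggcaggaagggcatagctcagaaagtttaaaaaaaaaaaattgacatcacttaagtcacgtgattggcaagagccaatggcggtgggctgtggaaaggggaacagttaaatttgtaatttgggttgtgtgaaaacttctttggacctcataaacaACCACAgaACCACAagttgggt

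Over all genes, 17128 passed the filter on low counts and 624 (3.64%) were called at an adjusted p below 0.05 by edgeR, 300 higher (1.75%) and 324 lower (1.89%) in the Mut-labelled libraries. Of the 624, 557 differed by more than 2-fold and 320 by more than 4-fold, and of the latter 117 were higher and 203 lower. The called genes that were higher were the more abundant. Their median level was 40.7 CPM, against 10.3 CPM for those that were lower and 20.7 CPM for all tested genes. With counts scaled to the ERCC spike-in transcripts in place of all genes (TMM), 170 genes were called, 16 higher and 154 lower. The share of higher calls was then 9.41% in place of 48.1%. The median log2 fold change of all genes moved from -0.01 to -0.38, and 80 of the 624 remained called. ERCC counts made up 0.647 and 0.312% (WT) against 0.883 and 0.380% (Mut-labelled) of gene and ERCC counts. These shares differed more between replicates than between groups, so ERCC scaling added spread within groups. Whether the RNA content of the cells differed was not tested. The values below are TMM-scaled and so compare a gene with the rest of its library. At an unadjusted p below 0.05 stood 2682 genes (15.7%), of which 1246 were higher (7.27%) and 1436 lower (8.38%). In all 624 called genes the WT and Mut-labelled libraries did not overlap, as in 44.6% of all tested genes. Below, a percent beside the calls of a list is the share of its tested genes called, against 3.64% of all tested genes. List counts at an unadjusted p below 0.05 stand against 15.7% of all tested genes, and those by DESeq2 against 1615 of 17128.

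**Figure D1:**
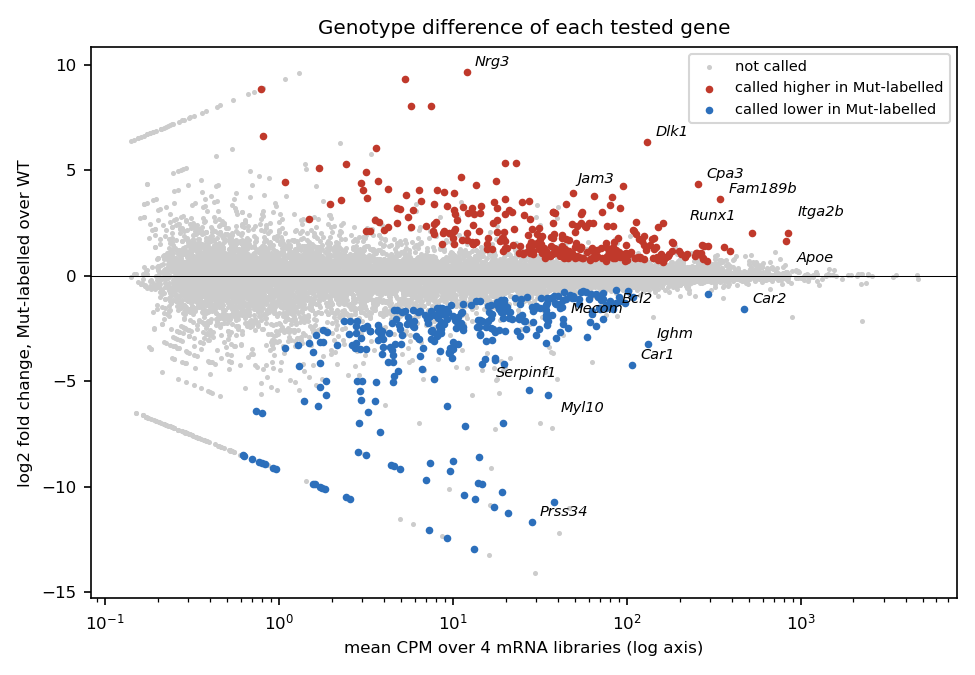
Each point is 1 of 17128 tested genes, with its mean level over the 4 mRNA libraries (CPM, log axis) against its log2 fold change, Mut-labelled over WT. The 300 genes called higher (red) and 324 called lower (blue) are spread over the range of levels. The diagonal lines at low levels are genes with 0 counts in a group, whose fitted fold depends on the prior count.

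The abundant end of the calls held genes of several kinds. Apoe, which encodes a lipid-carrying protein, stood at 427 and 369.6 CPM (WT) against 1307 and 1192 CPM (Mut-labelled) (log2 fold change 1.65, SE 0.17, edgeR adjusted p = 0.0113). Fam189b, a membrane protein gene, stood at 50.8 and 52.1 CPM (WT) against 533 and 733 CPM (Mut-labelled), a 12.3-fold difference. Serpina3g, a protease inhibitor gene, rose by 1.38, and the actin-binding protein gene Cotl1 by 1.39. Among abundant genes that fell were Bcl2 (survival factor, -1.59), Hip1r (endocytosis, -1.31) and Ccnd2 (cyclin D2, -0.88). Ccnd2 was not called with any 1 library left out (edgeR adjusted p = 0.0681 to 0.142).

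The libraries were checked for what the sort should hold. Kit, a receptor gene of the gate, stood at 891 and 884 CPM (WT) against 954 and 1099.6 CPM (Mut-labelled), and Ly6a, which encodes Sca-1, at 23.7 and 38.6 CPM (WT) against 32.5 and 26.04 CPM (Mut-labelled). Flt3, the receptor used to gate cells out, was still present at 117 and 155 CPM (WT) against 57.3 and 87.6 CPM (Mut-labelled) (edgeR adjusted p = 0.133). Itgam, a myeloid gene of lineage cocktails (picked after its values were seen), had 29.9 and 32.5 CPM (WT) against 46.4 and 62.5 CPM (Mut-labelled). Genes of mature neutrophils were higher in both Mut-labelled libraries, with a sum over 16 genes of 45.9 and 55.3 CPM (WT) against 582 and 181 CPM (Mut-labelled). The summed B cell genes differed more within groups than between them, at 1318 and 9917 CPM (WT) against 628 and 2324 CPM (Mut-labelled). A list of 20 genes of duct-type epithelium was drawn up with the values in view. Of these 17 were higher and 1 was called, where 3.64% of all tested genes were. The 3 lower members, not called, were Epcam (log2 fold change -2.32), Cldn4 (-5.46) and Cldn7 (-0.71). The sum over all 20 was 1519 and 1524 (WT) against 2425 and 2164 (Mut-labelled) in CPM of gene counts before TMM scaling. Krt8, a keratin of such epithelium picked in the same way, stood at 157 and 154 CPM (WT) against 275 and 236 CPM (Mut-labelled). It was not called (edgeR adjusted p = 0.0553). The part of these cells' RNA in the results below was not tested. Xist, the transcript of the inactive X chromosome, was at 1846 and 2905 CPM (WT) against 1863 and 3121 CPM (Mut-labelled).

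**Figure D2:**
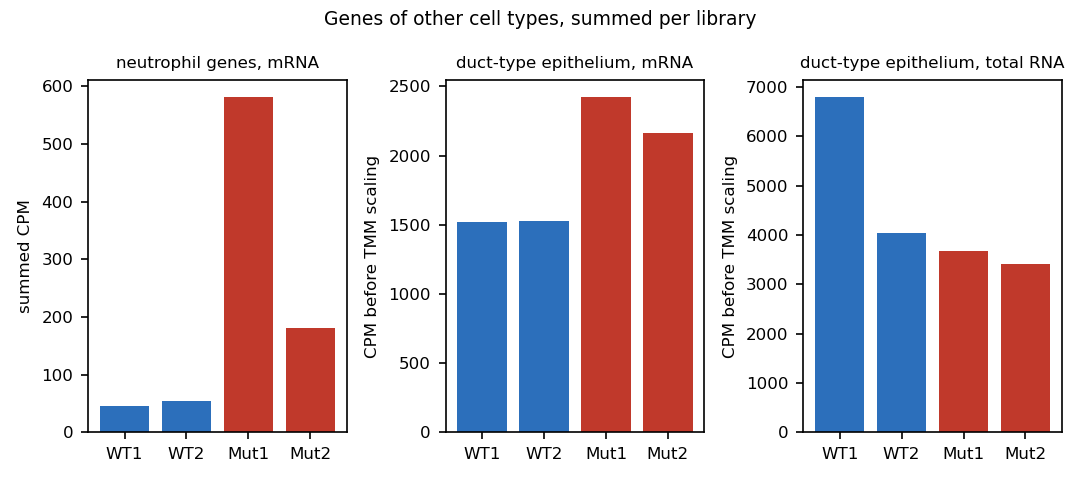
Bars give the summed level of 16 neutrophil genes (CPM) and of 20 duct-type epithelium genes (CPM before TMM scaling) in each library, WT in blue and Mut-labelled in red. The epithelium list was drawn up with the values in view. Neutrophil genes reach 582 CPM in Mut-labelled replicate 1, and the epithelial sum is higher in the Mut-labelled libraries among mRNA but not among total RNA libraries.

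Genes of platelets and megakaryocytes, the cells that shed them, were higher in 29 of 38 cases. Of the 38 tested genes 12 rose and 3 fell (39.5%, against 3.64% of all tested genes). The median log2 fold change was 0.57, and 0.19 under ERCC scaling. Among the members that rose, Itga2b, the integrin chain of the fibrinogen receptor, stood at 337 and 318 CPM (WT) against 1345 and 1344 CPM (Mut-labelled) (log2 fold change 2.04, SE 0.16, edgeR adjusted p = 0.00608). The 2 Mut-labelled libraries were nearly equal and 4.11-fold above WT. Treml1, a receptor stored in platelet granules, stood at 11.6 and 11.04 CPM (WT) against 171 and 132 CPM (Mut-labelled) (log2 fold change 3.74, SE 0.18, edgeR adjusted p = 0.0033). Clec1b, the receptor for podoplanin, stood at 1.03 and 1.96 CPM (WT) against 38.6 and 28.6 CPM (Mut-labelled). Inside the cell, Plek, a signalling protein that protein kinase C acts on, rose by 1.41 on the log2 scale. Alox12, the platelet lipoxygenase, rose by 3.24. The members that fell act in the same cells: Vwf, the carrier of clotting factor VIII, stood at 122 and 123 CPM (WT) against 58.7 and 40.2 CPM (Mut-labelled), Tbxa2r, the thromboxane receptor, fell by 2.43, and the cation channel gene Trpc6 fell by 1.98. Alox12 was at 2.61 without Mut-labelled replicate 1 and Tbxa2r was at -3.11 without Mut-labelled replicate 1 on the log2 scale.

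Red cell genes were lower in 25 of 28 cases. Of the 28 tested genes 9 fell (32.1%) and 0 rose by edgeR (0 at an unadjusted p of 0.05 and 0 by DESeq2). The median log2 fold change was -1.04, and -1.49 under ERCC scaling. Car2, a carbonic anhydrase, stood at 763 and 642 CPM (WT) against 266 and 205 CPM (Mut-labelled) (log2 fold change -1.58, SE 0.195, edgeR adjusted p = 0.0176). Its neighbour on the chromosome, Car1, stood at 238 and 165 CPM (WT) against 12.98 and 8.48 CPM (Mut-labelled), so that the groups were 18.8-fold apart. Klf1, the transcription factor of the red cell programme, stood at 65.3 and 43.8 CPM (WT) against 16.9 and 10.3 CPM (Mut-labelled), and Ank1, the ankyrin that ties the membrane to its skeleton, at 65.5 and 50.1 CPM (WT) against 19.8 and 12.1 CPM (Mut-labelled). Kel, a blood group antigen, fell by 2.24. In all of these both Mut-labelled libraries lay below both WT libraries, as in every gene called lower. Replicate 1 was above replicate 2 in either group. Of the 9 enzymes of haem synthesis, 0 passed in edgeR, 4 reached an unadjusted p of 0.05, 1 passed in DESeq2 and 8 were negative, and at most 2 passed with any 1 library left out. Their most abundant members Cpox and Alad stood at -0.59 and -0.92. With the replicate number as a block edgeR called 5 of the 9 lower, against 1539 lower of all 17128 tested genes. The red cell genes gave 15 falls without Mut-labelled replicate 1.

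Mast cell, basophil and eosinophil genes split. Of 23 tested, 6 rose and 5 fell (47.8%), with a median log2 fold change of -1.17, and of -1.51 under ERCC scaling. Cpa3, the carboxypeptidase of mast cell granules, stood at 28.7 and 19.4 CPM (WT) against 455 and 514 CPM (Mut-labelled) (log2 fold change 4.33, SE 0.24, edgeR adjusted p = 0.0033). Il1rl1, the receptor for interleukin-33, stood at 20.3 and 15.4 CPM (WT) against 138 and 189 CPM (Mut-labelled). The paired receptor genes Cd200r4 and Cd200r3 of mast cells and basophils rose by 5.37 and 5.33. The genes that fell encode proteins of granules. The basophil protease Prss34 had 2614 and 1693 counts in WT and 1 and 0 counts in Mut-labelled libraries, so that WT exceeded Mut-labelled by a ratio of 4140 (exact 95% interval 742 to 163000, counting error only). The basophil protease Mcpt8 stood at 19.4 and 17.4 CPM (WT) against 2.31 and 1.64 CPM (Mut-labelled) (edgeR adjusted p = 0.00821). Prg2, the major basic protein of eosinophils, stood at 131 and 101 CPM (WT) against 21.3 and 35.3 CPM (Mut-labelled), and Ear1, a ribonuclease of eosinophils, fell by 2.64. The mast cell, basophil and eosinophil genes gave 9 falls without WT replicate 2 and 8 falls without Mut-labelled replicate 2.

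The promoter windows of Cpa3, which rose, and of the proteases Prss34 and Mcpt8, which fell, are shown because these granule genes moved in opposite directions. They come from the same RefSeq table and build, at chr3:20242132-20242431 (minus strand), chr17:25298144-25298443 (plus strand) and chr14:56085148-56085447 (minus strand). Capitals mark the RUNX letters as above and the GATA letters AGATAA on either strand. Cpa3 and Prss34 hold 1 match of each kind, and Mcpt8 holds 2 RUNX matches and 0 GATA matches. A match is a description of the letters and not a site.
Cpa3: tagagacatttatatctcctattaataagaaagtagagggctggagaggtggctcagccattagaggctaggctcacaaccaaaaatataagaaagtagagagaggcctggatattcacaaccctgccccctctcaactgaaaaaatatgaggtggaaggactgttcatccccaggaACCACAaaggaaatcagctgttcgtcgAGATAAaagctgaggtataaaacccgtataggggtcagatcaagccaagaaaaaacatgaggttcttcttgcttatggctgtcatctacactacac
Prss34: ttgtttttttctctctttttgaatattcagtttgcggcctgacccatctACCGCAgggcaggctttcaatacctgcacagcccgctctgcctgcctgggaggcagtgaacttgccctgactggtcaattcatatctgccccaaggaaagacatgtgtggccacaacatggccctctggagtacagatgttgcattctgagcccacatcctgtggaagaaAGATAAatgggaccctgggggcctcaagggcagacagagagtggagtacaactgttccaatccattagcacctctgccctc
Mcpt8: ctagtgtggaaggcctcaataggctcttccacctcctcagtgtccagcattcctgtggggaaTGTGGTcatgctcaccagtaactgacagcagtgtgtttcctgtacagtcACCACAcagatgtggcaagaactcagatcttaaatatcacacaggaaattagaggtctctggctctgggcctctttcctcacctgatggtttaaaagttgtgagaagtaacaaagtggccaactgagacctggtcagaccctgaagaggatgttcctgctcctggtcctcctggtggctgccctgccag

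Genes used to mark or maintain stem cells moved both ways. Of 30 tested, 3 rose and 4 fell (23.3%), with a median log2 fold change of -0.17, and of -0.59 under ERCC scaling. Mecom, a zinc finger factor of stem cell maintenance, stood at 63.8 and 73.5 CPM (WT) against 17.9 and 14.99 CPM (Mut-labelled) (log2 fold change -2.06, SE 0.17, edgeR adjusted p = 0.00707). Its relative Prdm16 stood at 52.9 and 72.4 CPM (WT) against 21.4 and 23.3 CPM (Mut-labelled). Procr, the protein C receptor, fell by 2.13, and Ndn, an imprinted growth suppressor, fell by 4.89. Cd48, a surface protein that is low on stem cells and higher on progenitors, stood at 47.6 and 42.6 CPM (WT) against 181 and 179 CPM (Mut-labelled) (log2 fold change 1.996, SE 0.13, edgeR adjusted p = 0.00451), so the Mut-labelled libraries held 3.99-fold the WT level. Slamf1 (CD150), the stem cell marker paired with it and chosen after its values were seen, was not called (0.77, edgeR adjusted p = 0.159). Tek, the angiopoietin receptor, stood at 39.5 and 42.9 CPM (WT) against 123 and 131 CPM (Mut-labelled).

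Among 65 blood transcription factors, 3 rose and 3 fell (9.23%), with a median log2 fold change of 0.01, and of -0.32 under ERCC scaling. Besides Mecom, Prdm16 and Klf1, which fell, these were Sox5, Sox6 and Lyl1. Sox6, a factor of red cell maturation, stood at 40.5 and 65.8 CPM (WT) against 158 and 237 CPM (Mut-labelled) (log2 fold change 1.89, SE 0.302, edgeR adjusted p = 0.0342). Its close relative Sox5 stood at 1.66 and 0.942 CPM (WT) against 21.9 and 29.6 CPM (Mut-labelled). Lyl1, a basic helix-loop-helix factor of stem cells, stood at 222 and 213 CPM (WT) against 359 and 356 CPM (Mut-labelled). Of Hox genes, which encode homeobox factors of stem cell growth, 0 of 18 passed in edgeR, 5 reached an unadjusted p of 0.05 and 2 passed in DESeq2, and the most abundant, Hoxa9 and Hoxa7, stood at -0.73 and -0.397 with a list median log2 fold change of -0.41, and of -0.797 under ERCC scaling. Lyl1 was not called with any 1 library left out (edgeR adjusted p = 0.0856 to 0.31). The blood transcription factors gave 5 falls without WT replicate 2. With any 1 library left out the list without a call had 0 calls as well.

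Of genes of granulocyte and monocyte progenitors, 4 of 25 rose and 1 fell (20%). The median log2 fold change was 0.099, and -0.42 under ERCC scaling. The common beta chain of the IL-3, IL-5 and GM-CSF receptors, Csf2rb, stood at 82.4 and 95.3 CPM (WT) against 238 and 308 CPM (Mut-labelled) (log2 fold change 1.62, SE 0.18, edgeR adjusted p = 0.0124). The adjacent IL-3-specific chain, Csf2rb2, stood at 21.1 and 29.3 CPM (WT) against 113 and 144 CPM (Mut-labelled). Csf3r, the G-CSF receptor, rose by 1.0003. All 13 tested genes of mature neutrophils were positive, and 2 were called (15.4%). One was Cxcr2, the receptor for neutrophil-attracting chemokines, at 4.14 and 5.36 CPM (WT) against 39.6 and 38.5 CPM (Mut-labelled). The other was Retnlg, a resistin-like gene, at 1.001 and 1.05 CPM (WT) against 18.5 and 5.74 CPM (Mut-labelled). The Cxcr2 level was alike in both Mut-labelled libraries, while Retnlg followed the neutrophil sum and was highest in Mut-labelled replicate 1. The part of neutrophil RNA in these calls was not tested. Csf3r was called without Mut-labelled replicate 1 but not without any other single library (edgeR adjusted p = 0.0616 to 0.165). Retnlg was at 2.48 without Mut-labelled replicate 1 and 4.18 without Mut-labelled replicate 2 on the log2 scale. The granulocyte-monocyte progenitor genes gave 2 falls without Mut-labelled replicate 1. The mature neutrophil genes gave 9 rises without WT replicate 1, 11 rises without WT replicate 2, 9 rises without Mut-labelled replicate 1 and 12 rises without Mut-labelled replicate 2.

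Early lymphoid genes gave calls both ways. Of 21 genes of early lymphoid progenitors 1 rose and 3 fell (19%). The median log2 fold change was -0.44, and -0.79 under ERCC scaling. Ltb, which encodes lymphotoxin beta, stood at 54.9 and 55.3 CPM (WT) against 17.3 and 12.7 CPM (Mut-labelled) (log2 fold change -1.88, SE 0.203, edgeR adjusted p = 0.0124). Notch1, the receptor that directs the T lineage, stood at 91.4 and 127 CPM (WT) against 34.5 and 48.3 CPM (Mut-labelled), and Lax1, an adaptor of lymphocyte receptors, fell by 2.14. Of 16 B cell genes 2 fell (12.5%), namely Ighm and Cd72. Ighm, the heavy chain of IgM, stood at 296 and 182 CPM (WT) against 32.95 and 17.9 CPM (Mut-labelled). The receptor gene Cd72 stood at 32.4 and 33.5 CPM (WT) against 2.14 and 2.02 CPM (Mut-labelled). The whole B cell list had a median log2 fold change of -0.19, and of -0.93 under ERCC scaling. The summed B cell level was highest in WT replicate 2, while Cd72 was alike in both WT libraries. The part of B cell RNA in these calls was not tested. Of 17 T and NK cell genes 1 rose and 2 fell (17.6%). Of the 17, 10 were positive and 7 negative, with a median log2 fold change of 0.45, and of -0.17 under ERCC scaling. Lck, a kinase, fell by 3.21, Nkg7, a granule protein, fell by 1.36, and Lat, an adaptor, rose by 1.45. The early lymphoid genes gave 0 rises without WT replicate 1, 0 rises without WT replicate 2 and 2 rises without Mut-labelled replicate 1. The B cell and plasma cell genes gave 5 falls without WT replicate 1.

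**Figure D3:**
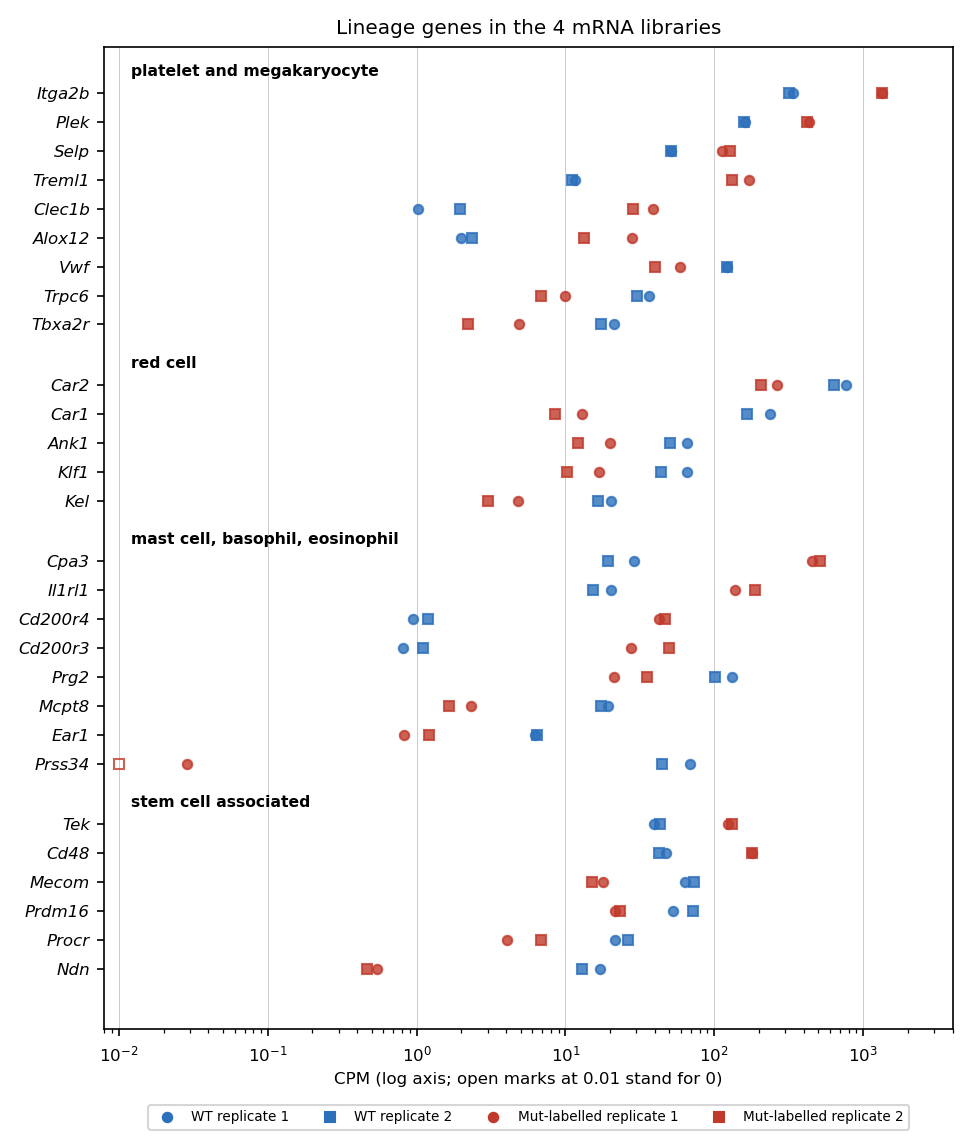
Each mark is the level of a gene in 1 mRNA library (CPM, log axis), with WT in blue, Mut-labelled in red, circles for replicate 1 and squares for replicate 2. All genes shown were called, so red and blue do not overlap, as in all 624 called genes and 44.6% of all tested genes. Platelet genes lie to both sides, red cell genes lie lower in red, and Prss34 has 1 and 0 counts in the Mut-labelled libraries.

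Receptors for cytokines and growth factors tell a progenitor to survive, divide or mature. Of 65 tested, 8 rose and 4 fell (18.5%, against 3.64% of all tested genes), with a median log2 fold change of 0.23, and of -0.14 under ERCC scaling. Receptors that rose included Erbb3, a partner of other EGF-receptor-family kinases, at 12.04 and 10.4 CPM (WT) against 40.5 and 44.1 CPM (Mut-labelled) (log2 fold change 1.91, SE 0.18, edgeR adjusted p = 0.00904). Kdr, the main receptor for VEGF, stood at 7.93 and 4.19 CPM (WT) against 46.4 and 43.6 CPM (Mut-labelled). Receptors of the interleukin-1 family went both ways: besides Il1rl1, which rose, Il1r1, the receptor for interleukin-1, stood at 40.2 and 39.4 CPM (WT) against 6.29 and 6.68 CPM (Mut-labelled) (log2 fold change -2.62, SE 0.19, edgeR adjusted p = 0.00566). Il18r1, the receptor for interleukin-18, stood at 6.17 and 11.4 CPM (WT) against 0.457 and 0.0821 CPM (Mut-labelled), and its signalling partner Il18rap at 35.6 and 47.8 CPM (WT) against 16.2 and 13.4 CPM (Mut-labelled). Il18, the ligand, fell as well (-1.63). Il18rap was not called without Mut-labelled replicate 2 (edgeR adjusted p = 0.063). Il18 was not called with any 1 library left out (edgeR adjusted p = 0.076 to 0.146). Il18r1 was at -6.69 without Mut-labelled replicate 1 and -4.25 without Mut-labelled replicate 2 on the log2 scale.

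Of 81 tested cytokines and growth factors 7 rose and 2 fell (11.1%). The median log2 fold change was 0.3002, and -0.09 under ERCC scaling. Nrg3, a neuregulin of the ligand family that acts on ErbB receptors, had 1 count in each WT library and 1089 and 610 in the Mut-labelled ones, a ratio of 884 (exact 95% interval 244 to 7310). Bmp7, a bone morphogenetic protein, stood at 1.21 and 1.54 CPM (WT) against 9.52 and 9.79 CPM (Mut-labelled) (log2 fold change 2.81, SE 0.31, edgeR adjusted p = 0.0126). Osm, the cytokine oncostatin M, rose by 1.397, and Il12a, a subunit of interleukin-12, by 1.55. Ccl3, a chemokine, fell by 3.25. Among JAK kinases, STAT factors and SOCS inhibitors, which carry and damp cytokine signals, 0 of 27 passed in edgeR, 5 reached an unadjusted p of 0.05 and 3 passed in DESeq2. Their most abundant members, Pim1 and Jak3, stood at 0.597 and 0.65. Osm was not called without Mut-labelled replicate 2 (edgeR adjusted p = 0.0557). Il12a was not called without Mut-labelled replicate 2 (edgeR adjusted p = 0.0508). Ccl3 was not called without Mut-labelled replicate 2 (edgeR adjusted p = 0.0568). Ccl3 was at -2.65 without WT replicate 2 on the log2 scale. The cytokines and growth factors gave 3 rises and 0 falls without Mut-labelled replicate 2, 1 fall without WT replicate 1 and 1 fall without WT replicate 2. With any 1 library left out, at most 1 of the genes in the list without a call passed.

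Paired and lectin-type receptors of myeloid cells, which bind ligands on other cells, microbes or dying cells and activate or inhibit, were called in 1 direction. Of 53 tested, 11 rose (20.8%) and 0 fell by edgeR (1 at an unadjusted p of 0.05 and 0 by DESeq2). The median log2 fold change was 0.97, and 0.57 under ERCC scaling. Fcgr2b, the inhibitory receptor for IgG, stood at 9.57 and 12.8 CPM (WT) against 59.9 and 67.6 CPM (Mut-labelled) (log2 fold change 2.51, SE 0.21, edgeR adjusted p = 0.00659). Clec9a, a receptor of dendritic cells for dead cells, stood at 0.843 and 1.54 CPM (WT) against 11.1 and 9.903 CPM (Mut-labelled). It is also in the list of macrophage and dendritic cell genes, of which 20 were tested, 1 rose and 1 fell, H2-Aa (10%). Of the 20, 5 were positive and 15 negative, with a median log2 fold change of -0.91, and of -1.29 under ERCC scaling. Treml1, Clec1b and the Cd200r genes above belong here too. The adjacent lectin genes Clec4e and Clec4d, which sense fungi and mycobacteria and were chosen after their values were seen, stood at 17.2 and 21.1 CPM (WT) against 82.7 and 110.1 CPM (Mut-labelled) for Clec4e and 2.53 and 2.12 CPM (WT) against 14.6 and 12.8 CPM (Mut-labelled) for Clec4d. Cd274 and Pdcd1lg2, which encode the ligands of the inhibitory receptor PD-1 and lie side by side, were also chosen after their values were seen. Cd274 stood at 33.9 and 45.6 CPM (WT) against 112 and 164 CPM (Mut-labelled) (log2 fold change 1.79, SE 0.24, edgeR adjusted p = 0.0223), and Pdcd1lg2 rose by 2.14. Of 25 Toll-like receptors and adaptors 4 rose (16%) and 0 fell by edgeR (1 at an unadjusted p of 0.05 and 1 by DESeq2). The median log2 fold change was 0.23, and -0.101 under ERCC scaling. Tlr6, a receptor for bacterial lipopeptides, stood at 3.24 and 2.98 CPM (WT) against 11.3 and 13.7 CPM (Mut-labelled), and Cd180, a Toll-like receptor of B cells and myeloid cells, at 24.7 and 18.4 CPM (WT) against 57.6 and 50.3 CPM (Mut-labelled). Tlr12, a receptor for a parasite protein, and the kinase gene Irak4 rose by 1.51 and 0.87. Pdcd1lg2 was not called without Mut-labelled replicate 2 (edgeR adjusted p = 0.0536). Tlr12 was not called without WT replicate 1 (edgeR adjusted p = 0.104) or Mut-labelled replicate 2 (0.0766). Irak4 was called without Mut-labelled replicate 1 but not without any other single library (edgeR adjusted p = 0.0623 to 0.144). The paired and lectin-type myeloid receptors gave 1 fall without Mut-labelled replicate 2. The macrophage and dendritic cell genes gave 2 rises and 3 falls without WT replicate 1, 2 rises and 2 falls without WT replicate 2, 2 rises and 2 falls without Mut-labelled replicate 2 and 2 falls without Mut-labelled replicate 1. The Toll-like receptors and adaptors gave 2 rises without WT replicate 1 and 2 rises without Mut-labelled replicate 2.

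Integrins, the paired chains by which cells hold to matrix and to each other, also gave calls in 1 direction. Of 24 tested, 7 rose (29.2%) and 0 fell by edgeR (0 at an unadjusted p of 0.05 and 0 by DESeq2). The median log2 fold change was 0.43, and 0.03 under ERCC scaling. Itgb2, the beta chain shared by leukocyte integrins, stood at 55.97 and 52.7 CPM (WT) against 190.2 and 171 CPM (Mut-labelled) (log2 fold change 1.73, SE 0.13, edgeR adjusted p = 0.00579). Itga9, which pairs with beta 1 to bind tenascin and osteopontin, stood at 18.4 and 18.9 CPM (WT) against 82.6 and 110.2 CPM (Mut-labelled). Itgb6, a chain of the epithelial integrin that activates latent TGF-beta, stood at 1.897 and 2.88 CPM (WT) against 16.1 and 20.1 CPM (Mut-labelled), and its level was low in WT. Other adhesion molecules included Jam3, a junction protein found on platelets and endothelium, at 9.88 and 7.46 CPM (WT) against 135 and 105 CPM (Mut-labelled) (log2 fold change 3.79, SE 0.22, edgeR adjusted p = 0.0033). Selp, the P-selectin of platelets, stood at 51.04 and 51.1 CPM (WT) against 114 and 128 CPM (Mut-labelled). In the adhesion list 6 of 66 rose and 3 fell (13.6%), with a median log2 fold change of 0.096, and of -0.32 under ERCC scaling. The falls were those of Alcam (-1.47), Tspan33 (-2.05) and Cldn13 (-2.56), the last a claudin of red cell precursors. Alcam was not called without Mut-labelled replicate 2 (edgeR adjusted p = 0.071). Cldn13 was not called without Mut-labelled replicate 2 (edgeR adjusted p = 0.0518). Tspan33 was at -2.67 without Mut-labelled replicate 1 and Cldn13 was at -3.24 without Mut-labelled replicate 1 on the log2 scale. The integrin subunits gave 4 rises without WT replicate 1. The cadherins, selectins and other adhesion molecules gave 3 rises without WT replicate 1.

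Guidance molecules steer growing axons and vessels. Of 54 tested 5 rose (9.26%) and 0 fell by edgeR (6 at an unadjusted p of 0.05 and 3 by DESeq2). The median log2 fold change was 0.301, and -0.17 under ERCC scaling. Robo3, of the receptor family for Slit ligands, stood at 12.3 and 12.5 CPM (WT) against 88.1 and 103 CPM (Mut-labelled) (log2 fold change 2.95, SE 0.15, edgeR adjusted p = 0.0033). The plexins, receptors for semaphorins, gave Plxna2 at 5.59 and 5.78 CPM (WT) against 18.3 and 18.3 CPM (Mut-labelled) and Plxnb3 at 0.395 and 0.288 CPM (WT) against 3.49 and 3.69 CPM (Mut-labelled). Of these Plxnb3 was near the lower end of detection in WT. Sema6b, a semaphorin, rose by 1.07. Sema6b was not called without WT replicate 1 (edgeR adjusted p = 0.0531) or Mut-labelled replicate 2 (0.0629). The guidance ligands and receptors gave 3 rises without Mut-labelled replicate 2.

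Receptors coupled to G proteins sense lipids, nucleotides and peptides. Of 100 tested 8 rose and 3 fell (11%), with a median log2 fold change of -0.07, and of -0.45 under ERCC scaling. Cnr2, the cannabinoid receptor of immune cells, stood at 19.1 and 17.7 CPM (WT) against 102 and 104 CPM (Mut-labelled) (log2 fold change 2.48, SE 0.13, edgeR adjusted p = 0.0033). Ltb4r1, the receptor for leukotriene B4, stood at 6.22 and 3.98 CPM (WT) against 27.6 and 29.8 CPM (Mut-labelled), and C5ar2, a second receptor for complement C5a, at 0.896 and 1.05 CPM (WT) against 5.49 and 6.84 CPM (Mut-labelled). In the other direction, S1pr3, a receptor for sphingosine-1-phosphate, stood at 19.4 and 15.7 CPM (WT) against 2.74 and 3.64 CPM (Mut-labelled), and the adhesion-type receptor gene Adgrl2 at 87.3 and 123 CPM (WT) against 30.9 and 39.04 CPM (Mut-labelled). The adhesion and other G protein-coupled receptors gave 4 rises without WT replicate 1 and 5 falls without Mut-labelled replicate 2.

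Channels for potassium, calcium and other cations gave 5 higher and 9 lower calls among 86 tested (16.3%). The median log2 fold change was -0.06, and -0.55 under ERCC scaling. P2rx7, the ATP-gated channel that activates the inflammasome in macrophages, stood at 5.69 and 9.71 CPM (WT) against 81.02 and 82.3 CPM (Mut-labelled) (log2 fold change 3.41, SE 0.28, edgeR adjusted p = 0.00659). Kcnj5, an inward rectifier opened by G proteins, stood at 6.298 and 2.46 CPM (WT) against 65.1 and 35.8 CPM (Mut-labelled). Kcnq5, a voltage-gated potassium channel, stood at 14.9 and 14.8 CPM (WT) against 1.97 and 2.54 CPM (Mut-labelled). For a pair of leak channels 1 group had no counts at all. Kcnk3 had 86 and 60 counts in WT and 0 in both Mut-labelled libraries, that is, at least 23.4-fold lower against a floor of 3 counts per library, and Kcnk9 had 59 and 53 counts in Mut-labelled and 0 in both WT libraries, at least 19.4-fold higher. Kcnk3 was not called without WT replicate 1 (edgeR adjusted p = 0.0584). Kcnj5 was at 4.35 without WT replicate 1 on the log2 scale.

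**Figure D4:**
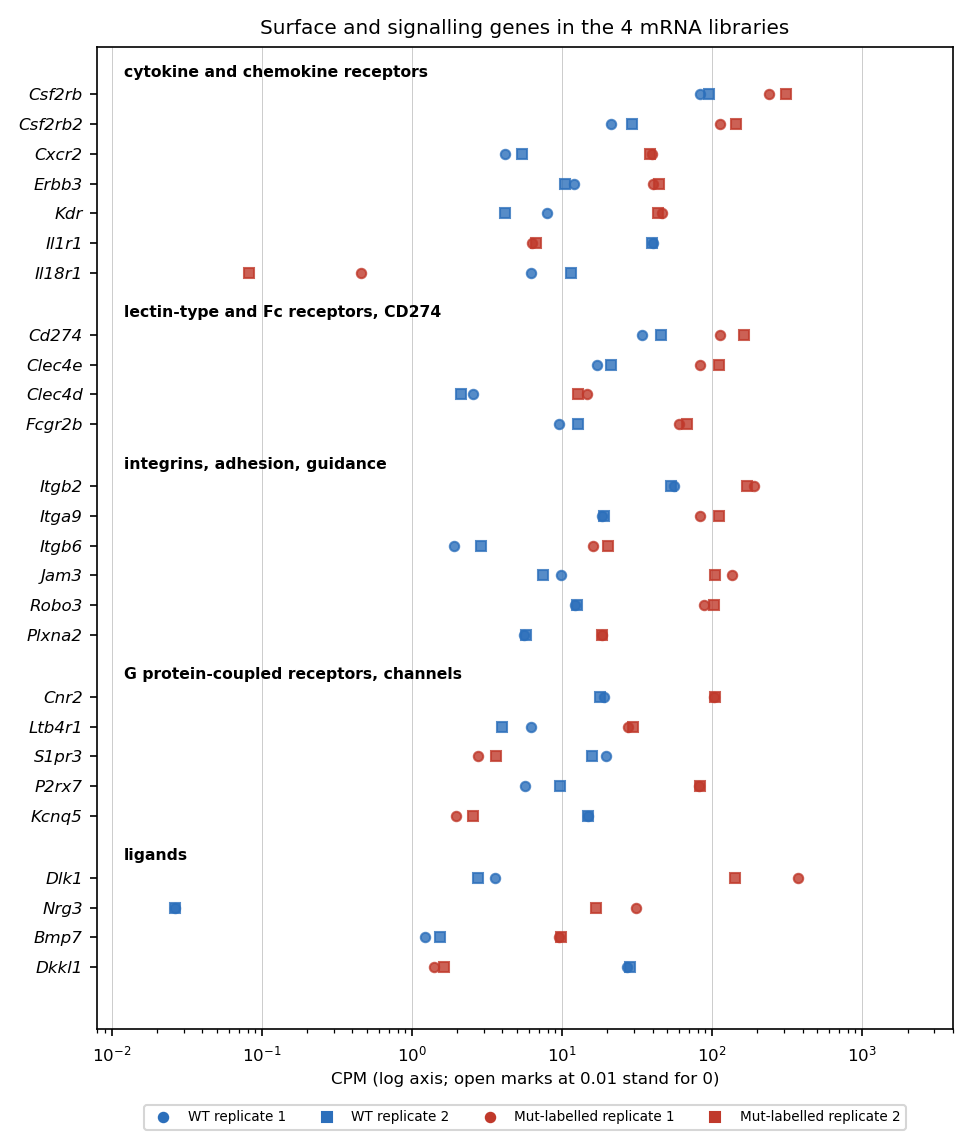
Each mark is the level of a gene in 1 mRNA library (CPM, log axis), with WT in blue, Mut-labelled in red, circles for replicate 1 and squares for replicate 2. Most of the receptors shown lie higher in red, while Il1r1, Il18r1, S1pr3, Kcnq5 and Dkkl1 lie lower, and Nrg3 has 1 count in each WT library.

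Among 68 myosins, actins and tubulins 3 rose and 3 fell (8.82%). The median log2 fold change was 0.05, and -0.35 under ERCC scaling. Myh10, the heavy chain of nonmuscle myosin IIB, stood at 81.1 and 61.2 CPM (WT) against 12.7 and 9.99 CPM (Mut-labelled) (log2 fold change -2.65, SE 0.22, edgeR adjusted p = 0.00697). Myl10, a light chain, stood at 97.3 and 40.8 CPM (WT) against 1.11 and 1.64 CPM (Mut-labelled). Mylk3, a kinase of myosin light chains, and Myo7a, a myosin of hair cells and retina, rose by 2.21 and 1.35. Myl10 was at -4.89 without WT replicate 1 on the log2 scale.

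Extracellular matrix genes and matrix proteases had 6 rises and 8 falls among 105 tested (13.3%). The median log2 fold change was 0.11, and -0.34 under ERCC scaling. The collagen gene Col16a1 stood at 52.2 and 53.3 CPM (WT) against 7.72 and 10.7 CPM (Mut-labelled) (log2 fold change -2.52, SE 0.22, edgeR adjusted p = 0.00753), and Bgn, the proteoglycan biglycan, at 24.98 and 24.96 CPM (WT) against 3.001 and 4.24 CPM (Mut-labelled). Adam22, a membrane protein of the ADAM family without protease activity, fell by 2.73. Col18a1, the collagen that yields endostatin, Adam15, a protease of the same family, and Adamts9, which cuts proteoglycans, rose by 1.12, 1.098 and 3.82. In the serpin family of protease inhibitors 2 of 20 tested genes rose and 1 fell (15%). The fall was that of Serpinf1, which encodes the vessel inhibitor PEDF, at 48.6 and 58.3 CPM (WT) against 1.26 and 1.26 CPM (Mut-labelled) (log2 fold change -5.41, SE 0.22, edgeR adjusted p = 0.0033).

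Among 41 WNT pathway genes 4 fell (9.76%) and 0 rose by edgeR (3 at an unadjusted p of 0.05 and 3 by DESeq2). The median log2 fold change was -0.12, and -0.55 under ERCC scaling. Dkkl1, a secreted relative of the WNT inhibitors of the Dickkopf family, stood at 27.04 and 28.3 CPM (WT) against 1.4004 and 1.64 CPM (Mut-labelled) (log2 fold change -4.18, SE 0.25, edgeR adjusted p = 0.0033). The receptor genes Fzd4 and Fzd8 fell (-2.69 and -1.903), as did the co-receptor gene Ryk (-1.17). In the Notch list of 29 genes, Jag2, a ligand, stood at 26.2 and 28.8 CPM (WT) against 9.203 and 9.41 CPM (Mut-labelled) and fell like Notch1, while Dlk1, a membrane protein related to Notch ligands, stood at 3.56 and 2.75 CPM (WT) against 371 and 141 CPM (Mut-labelled) (log2 fold change 6.34, SE 0.55, edgeR adjusted p = 0.00759). Both Mut-labelled libraries were far above WT for Dlk1 but differed from each other by more than 2-fold. Dlk1 is imprinted, and the adjacent imprinted RNA gene Meg3 rose too, at 6.59 and 14.99 CPM (WT) against 48.99 and 54.3 CPM (Mut-labelled). Of the 22 imprinted genes 2 rose and 2 fell (18.2%), with a median log2 fold change of -0.58, and of -0.98 under ERCC scaling. The falls were Ndn and Igf2r (-1.05). Among 37 TGF-beta and BMP pathway genes 1 rose (2.7%, against 3.64% of all tested genes), the activin receptor gene Acvr1b (1.19). By edgeR 0 fell (3 at an unadjusted p of 0.05 and 2 by DESeq2). The median log2 fold change was 0.21, and -0.14 under ERCC scaling. Fzd4 was not called without WT replicate 1 (edgeR adjusted p = 0.1) or Mut-labelled replicate 2 (0.0535). Fzd8 was not called without Mut-labelled replicate 2 (edgeR adjusted p = 0.0586). Meg3 was not called without Mut-labelled replicate 2 (edgeR adjusted p = 0.0611). Ryk was called without WT replicate 2 but not without any other single library (edgeR adjusted p = 0.0605 to 0.122). Igf2r was called without Mut-labelled replicate 1 but not without any other single library (edgeR adjusted p = 0.0639 to 0.0874). Acvr1b was not called without WT replicate 1 (edgeR adjusted p = 0.0879). Dlk1 was at 5.48 without Mut-labelled replicate 1 and Meg3 was at 2.98 without WT replicate 2 on the log2 scale. The WNT pathway genes gave 1 rise without WT replicate 2, 1 rise without Mut-labelled replicate 1 and 1 fall without Mut-labelled replicate 2. The Notch pathway genes gave 2 rises without Mut-labelled replicate 1. The imprinted genes gave 1 rise without Mut-labelled replicate 2 and 4 falls without Mut-labelled replicate 1. The TGF-beta and BMP pathway genes gave 0 rises without WT replicate 1 and 2 rises and 1 fall without Mut-labelled replicate 1.

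Of metabolic genes, some lists held calls and others had 0 in edgeR. Among 90 glycosyltransferases and sulfotransferases 2 rose and 5 fell (7.78% called, against 3.64% of all tested genes), with a median log2 fold change of -0.15, and of -0.48 under ERCC scaling. Chst1, which sulfates keratan and selectin ligands, stood at 5.19 and 2.83 CPM (WT) against 44.8 and 46.5 CPM (Mut-labelled) (log2 fold change 3.51, SE 0.33, edgeR adjusted p = 0.00856). B3gnt5, which starts the lacto-series glycolipids, stood at 23.8 and 36.2 CPM (WT) against 4.29 and 5.23 CPM (Mut-labelled). Of 37 amino acid transporters 1 rose and 2 fell (8.11%). Slc7a8, a transporter of large neutral amino acids, stood at 46.8 and 53.9 CPM (WT) against 209 and 294 CPM (Mut-labelled) (log2 fold change 2.32, SE 0.21, edgeR adjusted p = 0.00784), and Slc6a15 fell by 3.404. Asns, asparagine synthetase, a target of the amino acid response, stood at 61.6 and 44.9 CPM (WT) against 16.1 and 13.8 CPM (Mut-labelled). It was the only call among 32 unfolded protein and heat shock response genes (3.12%, near the 3.64% of all tested genes). Of 17 eicosanoid enzymes 2 rose (11.8%), Alox12 and Ptgs1, the constitutive cyclooxygenase (0.91), and 0 fell by edgeR (6 at an unadjusted p of 0.05 and 3 by DESeq2). For cholesterol synthesis 0 of 23 passed in edgeR, 3 reached an unadjusted p of 0.05 and 1 passed in DESeq2, and Srebf2, its main transcription factor, stood at -0.34. For fatty acid synthesis and oxidation 0 of 31 passed in edgeR, 5 reached an unadjusted p of 0.05 and 1 passed in DESeq2, with Fasn at -0.07 and Scd2 at -0.45. Ptgs1 was not called without WT replicate 1 (edgeR adjusted p = 0.0972) or WT replicate 2 (0.0511). Slc6a15 was at -4.04 without Mut-labelled replicate 2 on the log2 scale. The glycosyltransferases and sulfotransferases gave 1 rise without WT replicate 1. The amino acid transporters gave 1 fall without WT replicate 1. The eicosanoid synthesis genes gave 1 rise without WT replicate 1, 1 rise without WT replicate 2 and 2 falls without Mut-labelled replicate 1. With any 1 library left out, at most 1 of the genes in each list without a call passed.

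Of the lists given here for growth, division and the genome, those of G1 regulators and of the BCL2 family held calls. Among 25 G1 cyclins, kinases and inhibitors 2 rose and 1 fell (12%, against 3.64% of all tested genes): besides Ccnd2, these were Cdkn1a, which encodes the inhibitor p21 (0.73), and Btg1, an antiproliferative gene (0.86). For DNA replication and mitosis 0 of 35 passed in edgeR, 0 reached an unadjusted p of 0.05 and 0 passed in DESeq2. For DNA repair 0 of 41 passed in edgeR, 3 reached an unadjusted p of 0.05 and 1 passed in DESeq2, with Parp1 at -0.18. For DNA methylation, Polycomb and Trithorax genes 0 of 44 passed in edgeR, 3 reached an unadjusted p of 0.05 and 1 passed in DESeq2. For autophagy and lysosome genes 0 of 37 passed in edgeR, 3 reached an unadjusted p of 0.05 and 0 passed in DESeq2. For MAP kinase feedback inhibitors 0 of 31 passed in edgeR, 7 reached an unadjusted p of 0.05 and 5 passed in DESeq2. The phosphatase gene Dusp1 stood at 0.805. With the replicate number as a block edgeR called 4 of the 31 higher and 7 lower, against 2870 of all 17128 tested genes. For ribosome assembly factors, the subject of the series title, 0 of 59 passed in edgeR, 5 reached an unadjusted p of 0.05 and 1 passed in DESeq2. With the replicate number as a block edgeR called 1 of them higher and 15 lower, against 1331 higher and 1539 lower of all 17128 tested genes. Of the 59, 54 were negative and 5 positive, with a median log2 fold change of -0.201, and of -0.55 under ERCC scaling. Their sum was 8214 and 7107 CPM (WT) against 7119 and 6338 CPM (Mut-labelled), so WT replicate 2 lay just below Mut-labelled replicate 1. With 1 library left out the median ranged from -0.272 to -0.068. Ncl, the nucleolin gene, stood at -0.22. For cytoplasmic ribosomal proteins 0 of 75 passed in edgeR, 2 reached an unadjusted p of 0.05 and 0 passed in DESeq2. Of 16 tested genes of the BCL2 family, which sets the threshold of cell death, 1 was called (6.25%, against 3.64% of all tested genes). That was Bcl2 itself, at 118 and 131 CPM (WT) against 46.01 and 36.8 CPM (Mut-labelled) (log2 fold change -1.59, SE 0.16, edgeR adjusted p = 0.00966). Cdkn1a was not called with any 1 library left out (edgeR adjusted p = 0.0724 to 0.176). Btg1 was called without Mut-labelled replicate 1 but not without any other single library (edgeR adjusted p = 0.0503 to 0.157). The G1 cyclins, CDKs and CDK inhibitors gave 0 rises and 0 falls without WT replicate 1, 1 rise and 0 falls without WT replicate 2, 1 rise and 0 falls without Mut-labelled replicate 2 and 0 falls without Mut-labelled replicate 1. With any 1 library left out, at most 2 of the genes in each list without a call passed.

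**Figure D5:**
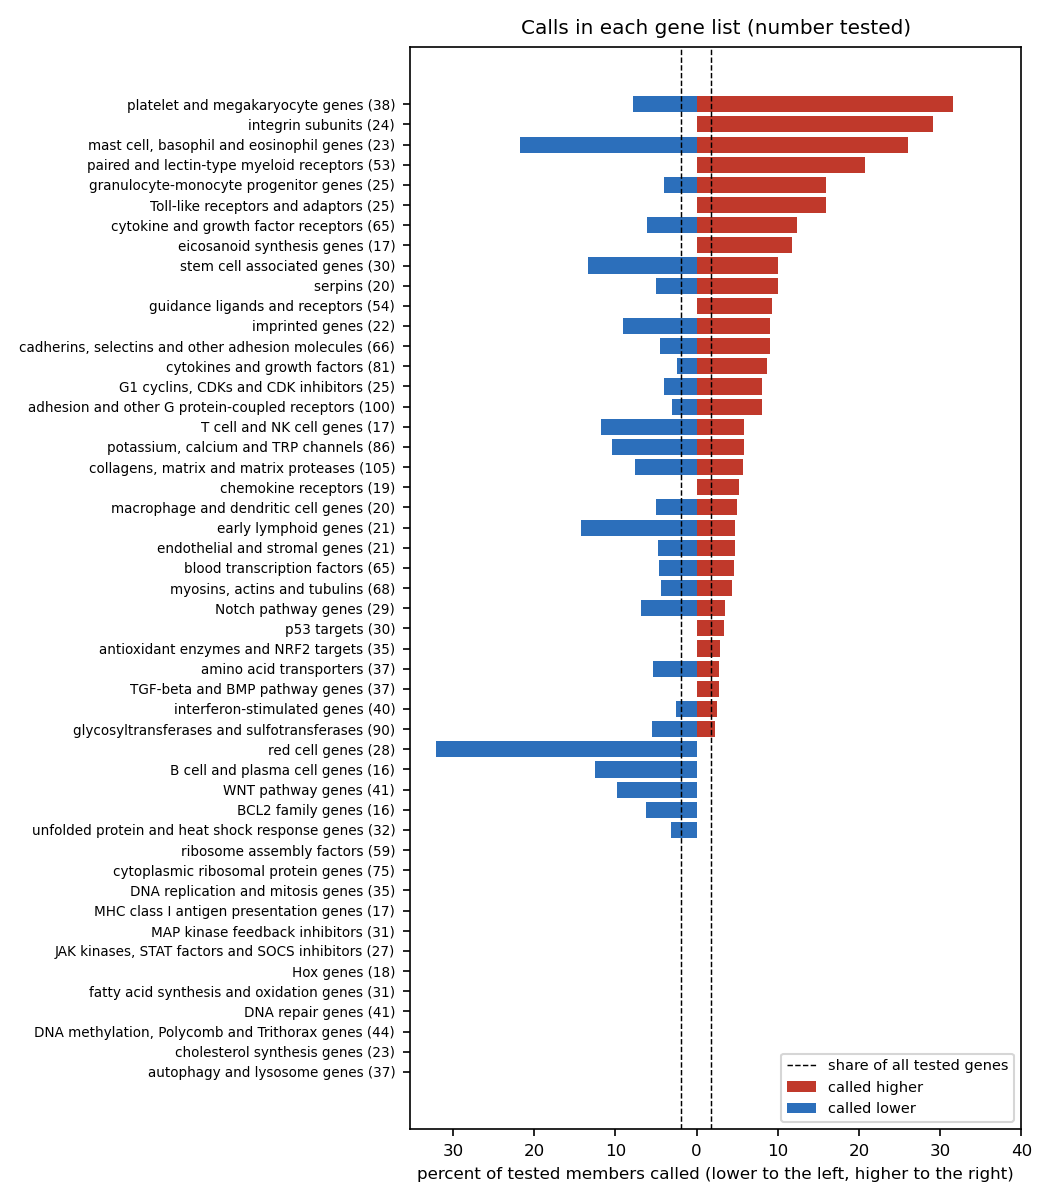
Bars give the percent of tested members of the larger reported lists called higher (right) or lower (left) in the Mut-labelled libraries. The number tested is in brackets. Lists with few tested members, such as mature neutrophil (13) and MHC class II genes (14), are not drawn. Dashed lines mark 1.75% and 1.89%, the shares of all tested genes, and the bottom lists have 0 calls by edgeR, though most of these have some by DESeq2.

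Interferon-stimulated and antigen presentation genes gave single calls. Ifitm1, an antiviral membrane protein gene, stood at 121 and 117 CPM (WT) against 51.9 and 41.9 CPM (Mut-labelled) (log2 fold change -1.34, SE 0.15, edgeR adjusted p = 0.013). Oas2, a sensor of double-stranded RNA, stood at 19.7 and 17.8 CPM (WT) against 52.02 and 42.9 CPM (Mut-labelled). Of 40 interferon-stimulated genes 1 was higher and 1 lower (5%, near the 3.64% of all tested genes). Their median log2 fold change was 0.18, and -0.31 under ERCC scaling. For MHC class I presentation 0 of 17 passed in edgeR, 2 reached an unadjusted p of 0.05 and 1 passed in DESeq2. Of 14 class II genes 1 rose and 1 fell (14.3%). H2-Aa, a chain of the peptide-presenting dimer, stood at 14.3 and 17.1 CPM (WT) against 3.34 and 4.92 CPM (Mut-labelled). H2-Ob, a chain of a regulator of peptide loading, stood at 43.2 and 38.7 CPM (WT) against 86.5 and 115 CPM (Mut-labelled). The interferon-stimulated genes gave 3 rises without WT replicate 1, 3 rises without Mut-labelled replicate 2 and 3 falls without Mut-labelled replicate 1. The MHC class II antigen presentation genes gave 3 falls without WT replicate 1 and 3 falls without Mut-labelled replicate 1. With any 1 library left out the list without a call had 0 calls as well.

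The genotype difference was then set against that of the total RNA libraries of the same sample names, in an edgeR interaction test over all 8 libraries. Of 17416 genes tested 0 differed between the kinds of library, with 687 at an unadjusted p below 0.05. The total RNA libraries held far fewer gene counts, which limits this test. With the sorted sample as a block 111 genes (0.637%) differed, 107 of them more positive in the mRNA libraries. Of these 111, 16 were among the 624 genes called here, and 15 of the 16 were higher in the Mut-labelled mRNA libraries. They included Col18a1, Cdkn1a, Chst1 and Nectin2 and 1 gene of the duct-type epithelium list, Tm4sf4, at 72.4 and 74.7 CPM (WT) against 128 and 114 CPM (Mut-labelled). That list was drawn up with the values in view, so its share here is no test. Of its 20 genes 17 were among the 111. The 20 genes had a median log2 fold change of 0.60 in the mRNA and -0.55 in the total RNA libraries. The part of such RNA in Col18a1, Cdkn1a and the other calls was not tested. Tm4sf4 was not called with any 1 library left out (edgeR adjusted p = 0.0503 to 0.227).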

How the data were processed

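The authors deposited 1 table of raw counts per gene, with a column for each of 8 libraries. It held 38086 entries, of which 37991 were Ensembl genes, 92 ERCC transcripts and 3 rRNA species. The submitters' processing notes name TopHat, featureCounts, edgeR and the build mm9. Versions, strand setting and treatment of multiply mapped reads are not stated in these notes. Overlapping and near-identical genes are therefore uncertain. GENCODE M21 names matched 32919 genes, and the 5072 others were tested but not named. Gene order came from a RefSeq table of another build, so it gave names and neighbours only.

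The 4 mRNA libraries held 35096252 to 37924699 gene counts, with ERCC counts at 0.312 to 0.883% (replicate 1 above replicate 2 in both groups). ERCC and rRNA entries were left out. Groups were compared without a block in edgeR 4.0.16 (R 4.3.3) with TMM scaling, the tool's low-count filter, its two-sided quasi-likelihood test and Benjamini-Hochberg adjustment over all genes tested. DESeq2 1.42.0, ERCC and RLE scaling, other filters, a replicate block and leaving out each library were alternatives. The script was tested on simulated data of 16575 genes: 33 of 49 genes changed 4-fold and 11 of 47 changed 2-fold were called, with 12 false calls. The libraries of a group differed beyond sampling noise (chi-square per degree of freedom 65.1 in WT and 61.0 in Mut-labelled).

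The members and the 55 gene lists were chosen with earlier results of these data known. The results of 1 list and of 1 further called gene are not reported here. Named genes were the Runx genes and Cbfb, the 12 most abundant called genes and the 10 with the largest change (mean of at least 5 CPM) in each direction. To these came up to 4 called members of each list per direction by lowest p, or the 2 most abundant where fewer than 2 were called. Those printed were taken from this set, and others are said to have been chosen after their values were seen. Ratios with few counts carry exact binomial 95% intervals of the counts, and a group at 0 was given a floor of 3 counts per library.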

Additional observations from a re-analysis of the deposited data

How the results depend on the processing

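The 4 libraries held 35096252 to 37924699 gene counts each, and depth limits the genes near 0 counts, while 2 libraries a group limit the estimate of spread. ERCC scaling gave 170 calls (16 higher, 154 lower), of which 80 were among the 624, and DESeq2 gave 1615 (751 higher, 864 lower), including all 624. RLE scaling, no filter, a mean of at least 1 CPM and a fit over 8 libraries gave 606, 714, 608 and 914 calls. Leaving out 1 library, where the lone sample of a group is assumed to vary like the other group, gave 602 to 815 calls, 244 to 364 higher and 351 to 451 lower. The interaction test then gave 0 to 1 calls, the 1 call without Mut-labelled total RNA replicate 1, whose cause was not tested. Of the 139 called genes named here, 139 kept their direction and 17 their call under ERCC scaling, 139 were called by DESeq2, and 111 stayed called without each library in turn. Among values not called, Kit (-0.12), Cbfb (-0.25) and Xist (-0.28) reversed under ERCC scaling. With 1 library left out, Cbfb ranged from -0.009 to 0.337, Ly6a from -0.401 to 0.317 and Xist from -0.346 to 0.447.

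The labels do not say that equal replicate numbers mark a shared batch. Deviations from the group means of samples with the same number correlated across genes (r = 0.323, which rests on 2 pairs). With the number as a replicate block edgeR called 2870 of 17128 tested genes, 1331 higher and 1539 lower. Lists with 0 calls without the block then had some, such as 1 higher and 15 lower of 59 ribosome assembly factors, 5 lower of 9 haem synthesis enzymes and 4 higher and 7 lower of 31 MAP kinase feedback inhibitors. Runx2 and Runx3 were called too. With the sorted sample as a block the interaction test called 111.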

Other observations

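Genes called in the mRNA libraries were often next to another called gene. Gene order was taken from RefSeq for 15406 tested genes, of which 589 were called. Of these, 91 (15.4%) had a called gene directly beside them, against 7.16% of the tested genes that were not called. Related genes that arose side by side are part of this count, and reads shared between them are uncertain. Of the 47 adjacent pairs in which both were called, 21 were higher together, 15 were lower together and 11 went opposite ways. The genes named in this and the next paragraph were chosen after their values were seen.

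Among pairs that moved together, Car3, the muscle carbonic anhydrase gene between Car1 and Car2, stood at -2.20 on the log2 scale and fell with both. Mcoln3 and Mcoln2, which encode channels of endosomes and lysosomes, stood at -3.43 and -2.20. Mapk12 and Mapk11, which encode p38 kinases, stood at 2.10 and 1.70. Among pairs that went apart, Gpc3 and Gpc4, which encode heparan sulfate proteoglycans of the cell surface, stood at 2.07 and -2.52. Il1rl1 (3.19) and Il18r1 (-5.02), receptors of the interleukin-1 family, are adjacent as well. Mapk11 was called without WT replicate 2 but not without any other library (edgeR adjusted p = 0.0874, 0.0523 and 0.0641).

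Besides Nrg3, several genes were near 0 in 1 group. C1qtnf7, a secreted protein gene of the C1q and TNF family, had 0 and 1 counts in WT and 375 and 381 in Mut-labelled libraries, a ratio of 787 (exact 95% interval 141 to 31100). Ppp1r14c, a phosphatase inhibitor gene, had 0 and 3 against 428 and 382 counts, a ratio of 281 (95.8 to 1370). Slc6a4, the serotonin transporter gene, had 44 and 52 counts in WT and 0 in both Mut-labelled libraries, at least 15.4-fold lower. Its call was lost without either WT library (edgeR adjusted p = 0.085 and 0.0888). Of 53 tested immunoglobulin variable genes, listed with the values in view, 43 were negative and 10 were called lower, while their summed level was 227 and 2607 in WT and 112 and 874 in Mut-labelled libraries, in CPM of gene counts before TMM scaling.

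Promoter windows (250 bases before to 50 after a start) were matched by symbol for 11218 tested genes, 224 called higher and 221 called lower. Windows on 1 chromosome were not used. The RUNX letters TGTGGT or TGCGGT, on either strand, were in 21.3% of the windows of all tested genes, 24.5% of those of genes called higher and 21.5% of those called lower. The GATA letters AGATAA were in 7.08%, 11.4% and 11.6%, and the E-box letters CAGCTG in 15.7%, 15.8% and 22.2%. The ETS letters CCGGAA were in 25.1%, 8.72% and 6.34%. The called sets also differed in base composition, with a median of 10 CpG pairs per window in genes called higher and 13 in those called lower, against 19 in all. The part of CpG content in these shares was not tested.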
